A study of Mus musculus with 11 samples.

Results

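The genes described here are 8 genes typical of choroid plexus epithelium: Ttr, Otx2, Folr1, Kl, Prlr, Clic6, Sostdc1 and Enpp2. They were taken by symbol from an RNA-seq table of 24347 rows, where each had 1 row. The study sequenced 11 mouse libraries, of which 4 were NRAS tumors, 4 were PDGFB tumors and 3 were normal brain. Newborn mice received plasmids in the right lateral ventricle, a space lined by ependyma and holding choroid plexus. For all tumors the plasmids included Sleeping Beauty transposase, firefly luciferase and SV40 large T antigen, an inhibitor of p53 and Rb. To these were added NRAS with the activating G12V mutation for NRAS tumors, or the growth factor PDGFB for PDGFB tumors. Tumor tissue was taken at a middle stage of growth and cut out by its GFP signal; normal brain is labelled as a wild-type control. The series text names FVB mice, while the sample labels give B6 for every library except normal brain 3, which is FVB. The labels give neither age at dissection nor brain region. They also leave unsaid whether each library is an animal of its own, and the p-values thus reflect only how these libraries vary, which may be technical.

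Choroid plexus is a fold of epithelium over capillaries in each brain ventricle. It secretes cerebrospinal fluid and passes hormones, vitamins and ions between blood and that fluid. Its cells arise beside the ciliated ependyma under control of the transcription factor Otx2, and they secrete transthyretin, the product of Ttr, as a main protein. Ttr in a piece of brain is therefore often taken as a mark of choroid plexus tissue.

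Levels are in FPKM, which divides fragments by the length of the transcript and by the size of the library, so that levels of different genes can be set side by side. Fold changes are differences of log2(FPKM + 1), which understate the change of low genes. The limma test covered the 14491 genes with at least 1 FPKM in at least 3 libraries, and adjusted p-values (Benjamini-Hochberg) were read at 0.05. The table holds no read counts, so depth is unknown; steps between low values gave relative depths of 0.771 to 1. Nras stood at 82.00 to 154 FPKM in NRAS tumors against 13.01 to 17.5 FPKM in normal brain, and Pdgfb at 745 to 1564 FPKM in PDGFB tumors against 6.12 to 7.19 FPKM in normal brain, as the labels imply. Libraries with title numbers 1834 to 1838 are the 3 normal brains and NRAS tumors 1 and 2, and those with 2038 to 2046 are NRAS tumors 3 and 4 and all PDGFB tumors. What the numbers stand for is not stated, and no number series holds both PDGFB tumors and normal brain.

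RefSeq promoter sequence was used for Otx2, Kl and Prlr, 3 of the 8 genes, and promoters of the others are not described. The 250 bases before the first annotated start of each are printed as a description. They are from GRCm38.p6, 5′ to 3′ on the strand of the gene, at chr14:48667645-48667894 (minus strand) for Otx2, chr5:150952357-150952606 (plus strand) for Kl and chr15:10176988-10177237 (plus strand) for Prlr.
Otx2: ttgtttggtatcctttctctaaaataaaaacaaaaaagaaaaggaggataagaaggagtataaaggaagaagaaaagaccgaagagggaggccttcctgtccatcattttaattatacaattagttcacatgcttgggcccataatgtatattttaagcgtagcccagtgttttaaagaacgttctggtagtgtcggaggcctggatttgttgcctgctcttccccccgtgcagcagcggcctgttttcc
Kl: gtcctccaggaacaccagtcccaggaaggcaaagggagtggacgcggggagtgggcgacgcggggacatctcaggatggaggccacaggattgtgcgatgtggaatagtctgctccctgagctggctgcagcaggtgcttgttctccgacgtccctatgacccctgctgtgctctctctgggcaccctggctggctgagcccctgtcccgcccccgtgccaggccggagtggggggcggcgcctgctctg
Prlr: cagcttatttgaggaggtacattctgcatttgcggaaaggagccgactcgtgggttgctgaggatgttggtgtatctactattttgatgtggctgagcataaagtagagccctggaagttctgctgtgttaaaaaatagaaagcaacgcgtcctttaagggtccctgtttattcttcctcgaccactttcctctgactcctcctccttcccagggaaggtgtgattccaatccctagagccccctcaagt
Both strands were searched for TAATCC, the core letters bound by OTX homeodomains (GGATTA on the other strand), and these 3 windows hold none. Of the 8 windows at all annotated starts of the 3 genes, 1 held it, beside 6.25% of 32851 windows of 250 bases at all promoters. That match begins 211 bases before a later start of Otx2, in this stretch at chr14:48665303-48665332 (minus strand), where capitals mark the match.
Otx2 stretch: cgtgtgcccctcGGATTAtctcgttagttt
A match of letters is a description and not a binding site.

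Against normal brain, all 8 genes were lower in NRAS tumors and 7 of the 8 were lower in PDGFB tumors. Ttr missed the threshold in PDGFB tumors. NRAS tumors lay below normal brain without overlap for all 8 genes, as they did for 31.9% of all genes tested. Of all genes tested, 30.3% were called lower in NRAS tumors and 29.2% in PDGFB tumors. The median log2 fold change of the 8 was -2.58 in NRAS tumors and -1.89 in PDGFB tumors, beside 0.01 and 0.04 over all genes tested. All 8 passed the filter on low values, but Clic6, Folr1, Otx2, Prlr and Sostdc1 passed only with the help of normal brain. No NRAS tumor reached 1 FPKM for these genes, so they had to be lower in NRAS tumors. In PDGFB tumors the filter favours lower levels, and the counts of these genes support nothing further in either model. Both comparisons use the same 3 normal brains. In tissue libraries, fewer choroid plexus cells and less RNA per cell cannot be told apart.

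**Figure D1:**
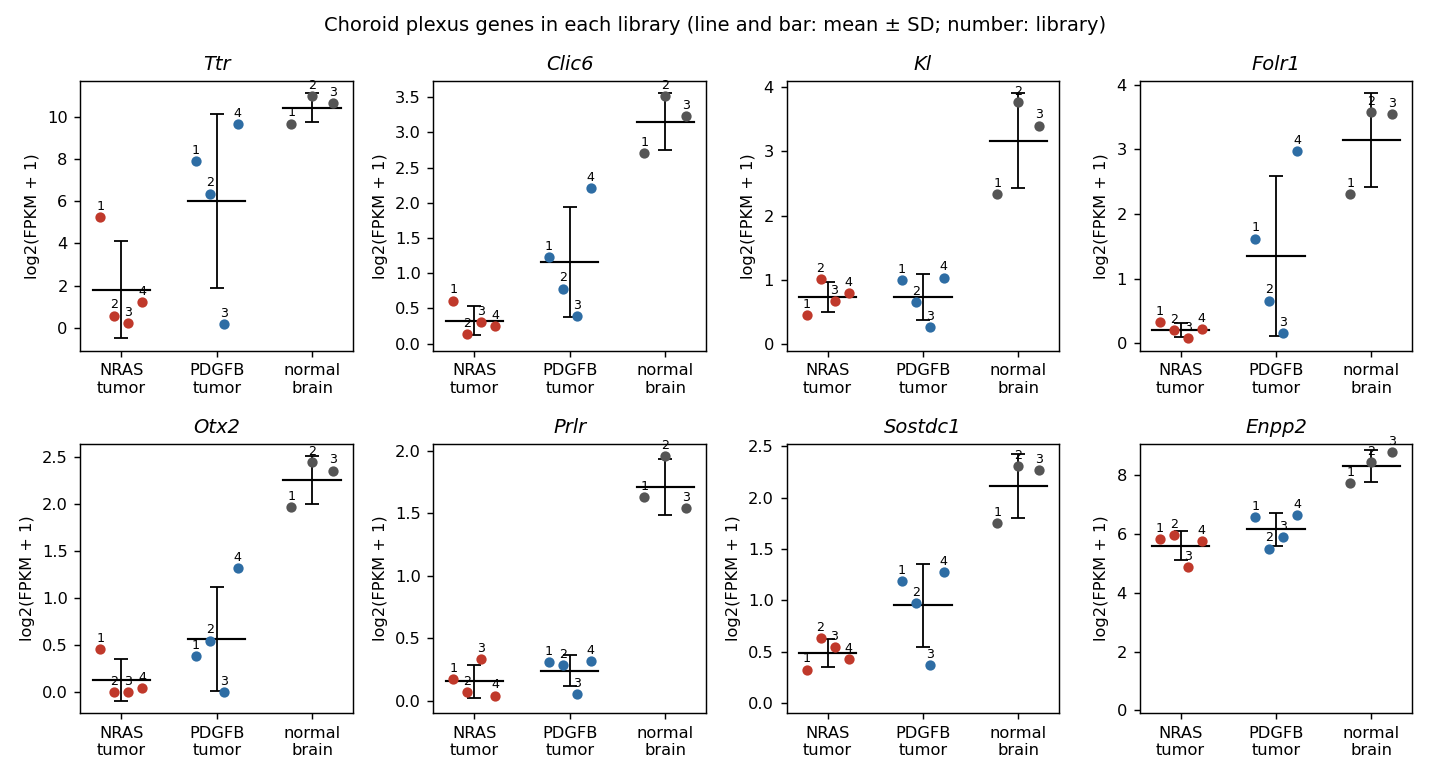
Level of each of the 8 choroid plexus genes, as log2(FPKM + 1) on the vertical axis, in NRAS tumors, PDGFB tumors and normal brain; each point is a library and the bars are mean ± SD. Normal brain lies above every tumor except for Folr1, where PDGFB tumor 4 (6.85 FPKM) lies above normal brain 1 (3.94 FPKM).

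Ttr, on chromosome 18, encodes the carrier of thyroid hormone and of retinol-binding protein in cerebrospinal fluid. It stood at 36.5, 0.501, 0.173 and 1.34 FPKM across the NRAS tumors (1 to 4), 236, 81.2, 0.126 and 798 FPKM across the PDGFB tumors (1 to 4) and 811, 2002 and 1595 FPKM across the normal brains (1 to 3). NRAS tumor 1 lay far above the other NRAS tumors, PDGFB tumor 3 far below the other PDGFB tumors, and no tumor reached normal brain. Ttr was the 104th most abundant row of the table in PDGFB tumor 4 and the 15518th in PDGFB tumor 3, against the 38th, 6th and 15th among normal brains 1 to 3. Its log2 fold change was -8.61 ± 1.90 (SE) in NRAS tumors against normal brain (limma, adjusted p = 0.00262), and 1 gene of all those tested had a lower value. In PDGFB tumors it was -4.41 ± 1.90 with an interval of -8.58 to -0.24 (adjusted p = 0.0657), although the groups did not overlap; 32.0% of genes tested were lower without overlap. Ttr passed in PDGFB tumors without PDGFB tumor 4 (-5.62, adjusted p = 0.0258) and without NRAS tumor 1, which enters only the spread (adjusted p = 0.0499). Without PDGFB tumor 3 the value was -2.46 (adjusted p = 0.113).

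Otx2, on chromosome 14 at 48656781 to 48667644 (GRCm38.p6), encodes the homeodomain factor named above. It stood at 0.375, 0, 0 and 0.0310 FPKM across the NRAS tumors (1 to 4), 0.305, 0.462, 0 and 1.49 FPKM across the PDGFB tumors (1 to 4) and 2.91, 4.47 and 4.13 FPKM across the normal brains (1 to 3). It is listed at 0 in 3 tumors, and every tumor was below every normal brain. Otx2 fell by 2.13 ± 0.28 (SE, log2) in NRAS tumors (adjusted p = 0.000154) and by 1.70 ± 0.28 in PDGFB tumors (adjusted p = 0.000484). Otx2os1, a noncoding gene named for the opposite strand of Otx2, did not pass the filter: it is listed at 0 in all 8 tumors, against 0.126, 0.246 and 0.129 FPKM in normal brains 1 to 3. Otx1, the related homeodomain factor, averaged 2.74 ± 1.19 FPKM in NRAS tumors, 0.352 ± 0.157 FPKM in PDGFB tumors and 1.72 ± 0.504 FPKM in normal brain (SD, n = 4, 4 and 3). Otx1 fell in PDGFB tumors (adjusted p = 0.00320), did not pass in NRAS tumors (0.43, adjusted p = 0.125) and was higher in NRAS than in PDGFB tumors (1.43, adjusted p = 0.00125).

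Folr1, on chromosome 7 at 101858331 to 101870788, encodes the folate receptor that brings folate into cerebrospinal fluid. It stood at 0.252, 0.154, 0.0533 and 0.162 FPKM across the NRAS tumors (1 to 4), 2.07, 0.581, 0.117 and 6.85 FPKM across the PDGFB tumors (1 to 4) and 3.94, 10.9 and 10.7 FPKM across the normal brains (1 to 3). PDGFB tumor 4 lay among the normal brains, the one overlap of tumors and normal brain in the 8 genes. Folr1 fell by 2.94 ± 0.56 (SE, log2) in NRAS tumors (adjusted p = 0.00120) and by 1.79 ± 0.56 in PDGFB tumors (adjusted p = 0.0175). The call in PDGFB tumors was lost without normal brain 2 (adjusted p = 0.0695) or normal brain 3 (adjusted p = 0.0686). The annotation places a long noncoding gene over Folr1, and likewise over Prlr and Ttr; whether counting used strand is not given, so reads of such pairs cannot be told apart.

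Kl, on chromosome 5 at 150952607 to 150993817, encodes alpha-klotho, the coreceptor for the hormone FGF23. It stood at 0.369, 1.01, 0.598 and 0.742 FPKM across the NRAS tumors (1 to 4), 1.003, 0.572, 0.201 and 1.05 FPKM across the PDGFB tumors (1 to 4) and 4.05, 12.6 and 9.53 FPKM across the normal brains (1 to 3). The ranges of the tumor models overlapped at a low level, and neither reached normal brain. Kl fell by 2.43 ± 0.32 (SE, log2) in NRAS tumors (adjusted p = 0.000158) and by 2.43 ± 0.32 in PDGFB tumors (adjusted p = 0.000136).

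Prlr, on chromosome 15 at 10177238 to 10349190, encodes the prolactin receptor. It stood at 0.127, 0.0516, 0.262 and 0.0301 FPKM across the NRAS tumors (1 to 4), 0.238, 0.219, 0.0391 and 0.245 FPKM across the PDGFB tumors (1 to 4) and 2.10, 2.89 and 1.91 FPKM across the normal brains (1 to 3). The highest tumor, NRAS tumor 3, was far below the lowest normal brain. Prlr fell by 1.55 ± 0.16 (SE, log2) in NRAS tumors (adjusted p = 2.98e-05) and by 1.47 ± 0.16 in PDGFB tumors (adjusted p = 3.82e-05).

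Clic6, on chromosome 16 at 92498147 to 92541241, encodes a protein of the chloride intracellular channel family. It stood at 0.527, 0.0979, 0.237 and 0.188 FPKM across the NRAS tumors (1 to 4), 1.35, 0.719, 0.315 and 3.64 FPKM across the PDGFB tumors (1 to 4) and 5.55, 10.4 and 8.37 FPKM across the normal brains (1 to 3). All NRAS tumors were low, while PDGFB tumors were spread out with tumor 4 nearest to normal brain. Clic6 fell by 2.83 ± 0.37 (SE, log2) in NRAS tumors (adjusted p = 0.000154) and its log2 fold change in PDGFB tumors was -1.996 ± 0.37 (adjusted p = 0.000940).

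Sostdc1, on chromosome 12 at 36314169 to 36318452, encodes a secreted antagonist of BMP and WNT signals. It stood at 0.253, 0.554, 0.460 and 0.349 FPKM across the NRAS tumors (1 to 4), 1.27, 0.960, 0.294 and 1.42 FPKM across the PDGFB tumors (1 to 4) and 2.37, 3.95 and 3.82 FPKM across the normal brains (1 to 3). PDGFB tumors 1, 2 and 4 were above all NRAS tumors and below all normal brains. Sostdc1 fell by 1.62 ± 0.23 (SE, log2) in NRAS tumors (adjusted p = 0.000240) and by 1.16 ± 0.23 in PDGFB tumors (adjusted p = 0.00146).

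Enpp2, on chromosome 15 at 54838901 to 54952789, encodes autotaxin, the secreted enzyme that makes lysophosphatidic acid; oligodendrocytes express it too. It stood at 55.1, 60.9, 27.97 and 52.4 FPKM across the NRAS tumors (1 to 4), 93.7, 44.1, 58.2 and 97.8 FPKM across the PDGFB tumors (1 to 4) and 209, 345 and 439 FPKM across the normal brains (1 to 3). No tumor reached normal brain, and Enpp2 had the highest level of the 8 genes in all 4 NRAS tumors and in PDGFB tumor 3, and Ttr had the highest level in the other libraries. Enpp2 fell by 2.72 ± 0.35 (SE, log2) in NRAS tumors (adjusted p = 0.000151) and by 2.17 ± 0.35 in PDGFB tumors (adjusted p = 0.000471). Of all genes tested, 30.3% were called lower in NRAS tumors and 29.2% in PDGFB tumors, and neuron genes, given below, mostly fell. Genes of myelinating oligodendrocytes mostly fell too. Of 15 tested, 0 rose, 14 fell and 1 did not pass in NRAS tumors, and 0 rose, 13 fell and 2 did not pass in PDGFB tumors. Their summed level was 846, 2175, 641 and 1373 FPKM across NRAS tumors 1 to 4, 2068, 373, 356 and 2718 FPKM across PDGFB tumors 1 to 4 and 5811, 2766 and 8468 FPKM across normal brains 1 to 3. NRAS tumor 2 and PDGFB tumor 4 had the highest FPKM of their model in both, and NRAS tumor 3 the lowest of the NRAS tumors. For Enpp2 the lead of PDGFB tumor 4 over PDGFB tumor 1 was small, and by rank within its library PDGFB tumor 1 was higher. The lowest libraries differed elsewhere: PDGFB tumor 2 for Enpp2 and PDGFB tumor 3 for the myelin sum, and normal brain 1 for Enpp2 and normal brain 2 for the myelin sum. The part of oligodendrocytes in the Enpp2 result was not tested.

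**Figure D2:**
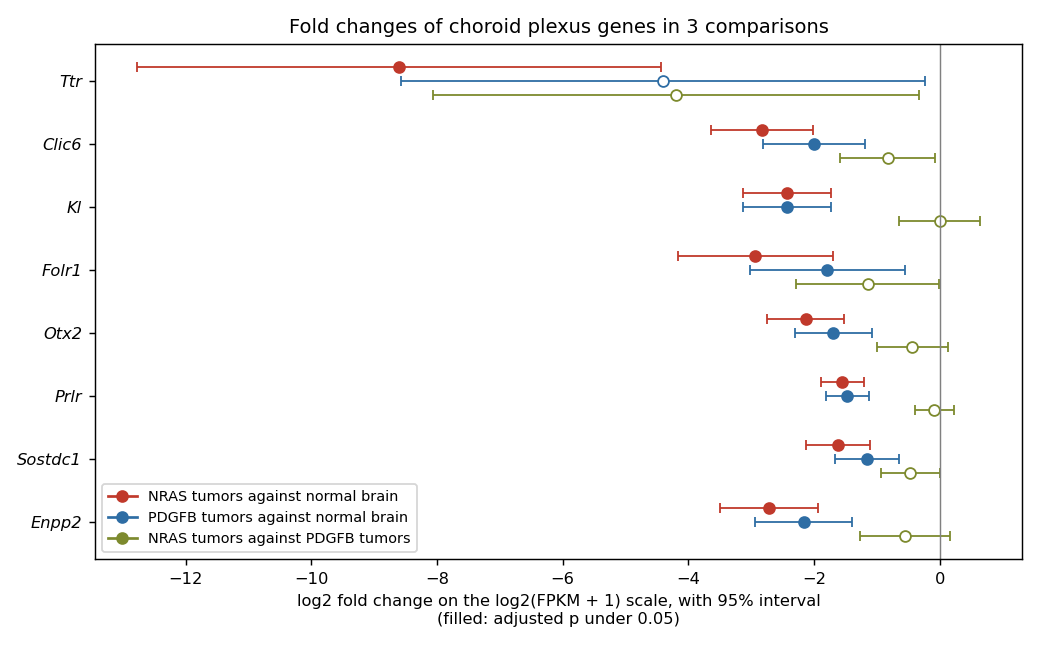
Log2 fold change with its 95% interval for each of the 8 genes, in NRAS tumors against normal brain, PDGFB tumors against normal brain and NRAS tumors against PDGFB tumors. Ttr has the widest intervals, -12.78 to -4.43 in NRAS tumors against normal brain, and no gene passed the threshold between the tumor models; filled points are those with an adjusted p under 0.05.

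Within title numbers 1834 to 1838, NRAS tumors 1 and 2 against the 3 normal brains gave -7.52 for Ttr (adjusted p = 0.0132), -2.88 for Folr1, -2.78 for Clic6 and -2.44 for Kl. Otx2 (-2.03), Enpp2 (-2.43), Sostdc1 (-1.63) and Prlr (-1.59) passed as well. Normal brain alone meets the filter in this subset, so these values describe the genes and are no further support. For PDGFB tumors against normal brain there is no such value; with the number series as a covariate, which compares them through NRAS tumors, Ttr was -2.23 (adjusted p = 0.605) and the calls of Folr1 (-1.67, adjusted p = 0.197) and Enpp2 (-1.59, adjusted p = 0.0538) were lost.

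NRAS tumors were then set against PDGFB tumors, since the study compares its 2 models. None of the 8 genes passed in limma, where 26.6% of all genes tested did. The models overlapped for all 8 genes, while 24.5% of genes tested had no overlap. The mean level was lowest in NRAS tumors and highest in normal brain for every gene, but no step between the tumor models passed the test. The log2 fold change was -4.20 ± 1.76 (SE) for Ttr with an interval of -8.06 to -0.33 (adjusted p = 0.101), and -1.15 ± 0.52 for Folr1 with -2.29 to -0.01 (adjusted p = 0.127). For Clic6 it was -0.83 ± 0.34 with -1.58 to -0.08 (adjusted p = 0.0951). The intervals of Kl, -0.65 to 0.64, and Prlr, -0.40 to 0.23, lay around 0, and those of Enpp2, Sostdc1 and Otx2 had centres of -0.55, -0.47 and -0.44. Without PDGFB tumor 3, Ttr (-6.14, adjusted p = 0.00791), Clic6 (-1.08, adjusted p = 0.0440) and Sostdc1 (-0.66, adjusted p = 0.0340) passed, and Ttr passed without NRAS tumor 1 (-5.33, adjusted p = 0.0447). Without PDGFB tumors 1 and 4, Ttr was -1.45 (adjusted p = 0.575). Within title numbers 2038 to 2046, where Ttr and Enpp2 alone passed the filter, they were -5.29 (adjusted p = 0.152) and -0.85 (adjusted p = 0.169).

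Relative to normal brain, the 8 genes did not drop by a common factor within a tumor. PDGFB tumor 4 had 80.4% of the normal mean of Folr1, 54.3% of Ttr, 44.8% of Clic6, 42.03% of Sostdc1 and 38.9% of Otx2. It had 29.5% of Enpp2, 12.01% of Kl and 10.6% of Prlr. In FPKM it was the highest PDGFB tumor for all 8 genes, and PDGFB tumor 3 was the lowest for 7, all but Enpp2. The lead of PDGFB tumor 4 over PDGFB tumor 1 was small for Kl (1.05 against 1.003 FPKM) and Prlr (0.245 against 0.238 FPKM). It was small for Enpp2 too (97.8 against 93.7 FPKM). FPKM summed over all rows was 942909 in PDGFB tumor 4 and 554046 in PDGFB tumor 1. By rank among the rows of its library, PDGFB tumor 4 was not the highest for Enpp2 (955th, against 790th in PDGFB tumor 1). For Prlr it was 15026th, against 14671st in PDGFB tumor 2. Whether the order holds after rescaling of the levels was not tested. The median percentage over the 8 genes was 6.01, 2.03, 4.89 and 2.11 across NRAS tumors 1 to 4, against 16.4, 9.18, 1.998 and 40.5 across PDGFB tumors 1 to 4. Across normal brains 1 to 3 it was 65.8, 127 and 109. NRAS tumors had no single order, with NRAS tumor 1 highest for 4 genes and NRAS tumor 2 for 3. Among normal brains, normal brain 1 was the lowest for 7 genes and normal brain 2 the highest for 7.

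**Figure D3:**
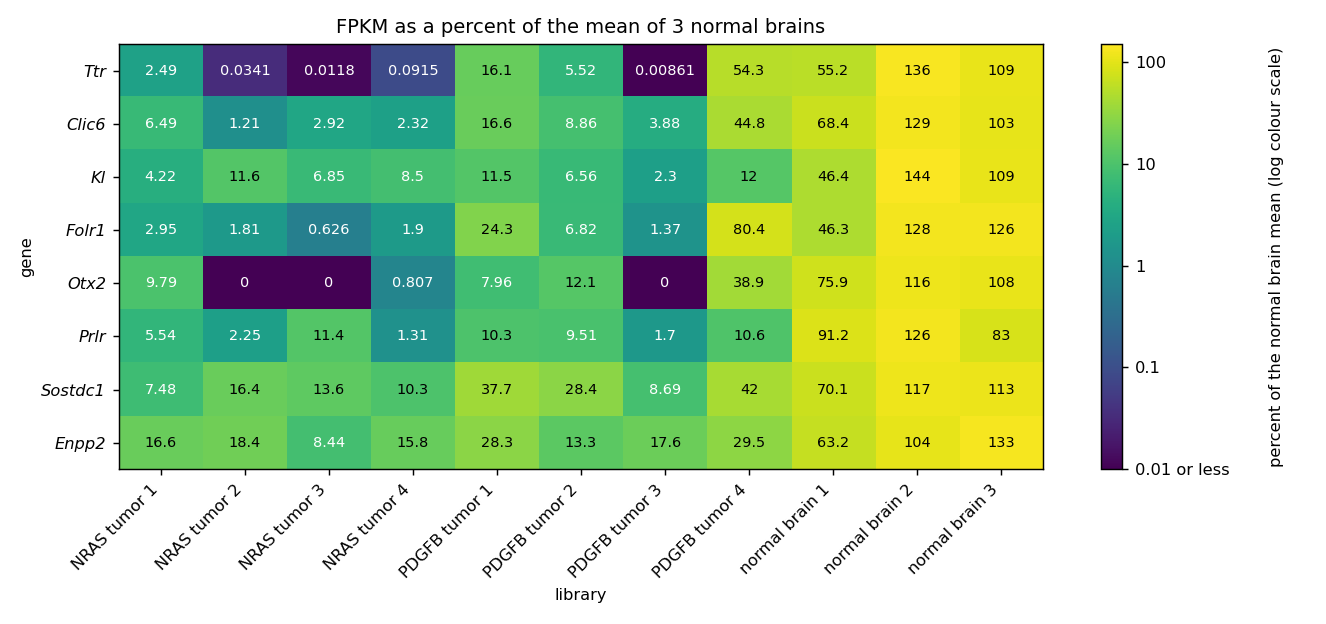
FPKM of each of the 8 genes (rows) in each library (columns) as a percent of the mean of the 3 normal brains, on a log colour scale. PDGFB tumor 4 keeps 80.4% of the normal level of Folr1 but 10.6% of that of Prlr, and Enpp2 lies between 8.44 and 29.5% in all 8 tumors.

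By their titles, normal brain 1 belongs with NRAS tumor 2 and normal brain 3 with PDGFB tumor 1. The series text calls them paired, without saying that a pair is 1 animal. By the labels PDGFB tumor 1 is B6 and normal brain 3 is FVB, so that pair is not 1 animal if the labels are right. Their title numbers, 2043 and 1834, also lie in different series. NRAS tumor 2 had 0.0618% of the Ttr of its normal brain, 1.76% of the Clic6 and 3.92% of the Folr1, but 25.01% of the Kl, 23.4% of the Sostdc1 and 29.1% of the Enpp2. PDGFB tumor 1 had 14.8% of the Ttr of its normal brain, 19.3% of the Folr1, 10.5% of the Kl and 7.39% of the Otx2. All 8 genes were lower in the tumor in both pairs, which have no replicate check.

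Other genes of choroid plexus epithelium came from a list with 34 genes in the table, of which 25 passed the filter. In NRAS tumors 2 rose, 15 fell and 8 did not pass, with a median log2 fold change of -1.23. In PDGFB tumors 1 rose, 20 fell and 4 did not pass, with a median of -1.20; with title numbers as a covariate 13 of the 25 were called in PDGFB tumors. Of all genes tested, 62.3% were called in either direction in NRAS tumors and 58.5% in PDGFB tumors. Kcnj13, Kcne2, Trpv4, Cldn2, Mfrp and F5 passed the filter only with normal brain, which favours lower levels in tumors, so their values are a description. Among the other 19 genes, 2 rose, 10 fell and 7 did not pass in NRAS tumors, and 1 rose, 14 fell and 4 did not pass in PDGFB tumors. Kcne2, a potassium channel subunit, averaged 0.0870 ± 0.101 FPKM in NRAS tumors, 0.512 ± 0.586 FPKM in PDGFB tumors and 3.89 ± 1.57 FPKM in normal brain (SD, n = 4, 4 and 3). Its log2 fold changes were -2.11 and -1.71, where the first of such a pair of values, here and in what follows, is for NRAS tumors and the second for PDGFB tumors, each against normal brain. The values were -2.27 and -1.98 for Kcnj13, a potassium channel of the apical membrane, and -1.61 and -1.15 for Cldn2, a claudin of leaky tight junctions. Slc13a4, a sulfate transporter, fell (-2.03 and -2.49), and so did 1500015O10Rik (-2.67 and -2.23), named Ecrg4 in RefSeq, which encodes a secreted peptide precursor.

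Large falls in that list included genes that other brain cells also express. Htr2c, a serotonin receptor of choroid plexus and neurons, averaged 2.04 ± 1.49 FPKM in NRAS tumors, 1.06 ± 0.567 FPKM in PDGFB tumors and 28.5 ± 6.55 FPKM in normal brain and fell in both models (-3.37 and -3.86). Igf2, a growth factor of choroid plexus, meninges and vessels, fell (-2.80 and -3.23), as did Vat1l (-2.77 and -1.63) and the calcium pump gene Atp2b3 (-2.46 and -2.84). Igfbp2, whose product binds insulin-like growth factors, averaged 646 ± 492 FPKM in NRAS tumors, 213 ± 45.5 FPKM in PDGFB tumors and 48.8 ± 6.23 FPKM in normal brain and rose in both (3.30 and 2.08). Steap1, a metalloreductase gene, rose in NRAS tumors (1.27) and fell in PDGFB tumors (-0.79). Between the models 4 of the 25 differed: Steap1 (2.06) and Spint2 (1.29), a protease inhibitor gene, were higher in NRAS tumors, and Slc29a4 (-1.44), a monoamine transporter gene, and Vat1l (-1.15) were lower. Aqp1, the water channel of choroid plexus, was chosen after its values were seen: it did not pass in NRAS tumors (0.62, adjusted p = 0.432) or PDGFB tumors (0.30, adjusted p = 0.721), with 1.44 to 21.6 FPKM in NRAS tumors, 1.73 to 5.08 FPKM in PDGFB tumors and 1.78 to 3.46 FPKM in normal brain.

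**Figure D4:**
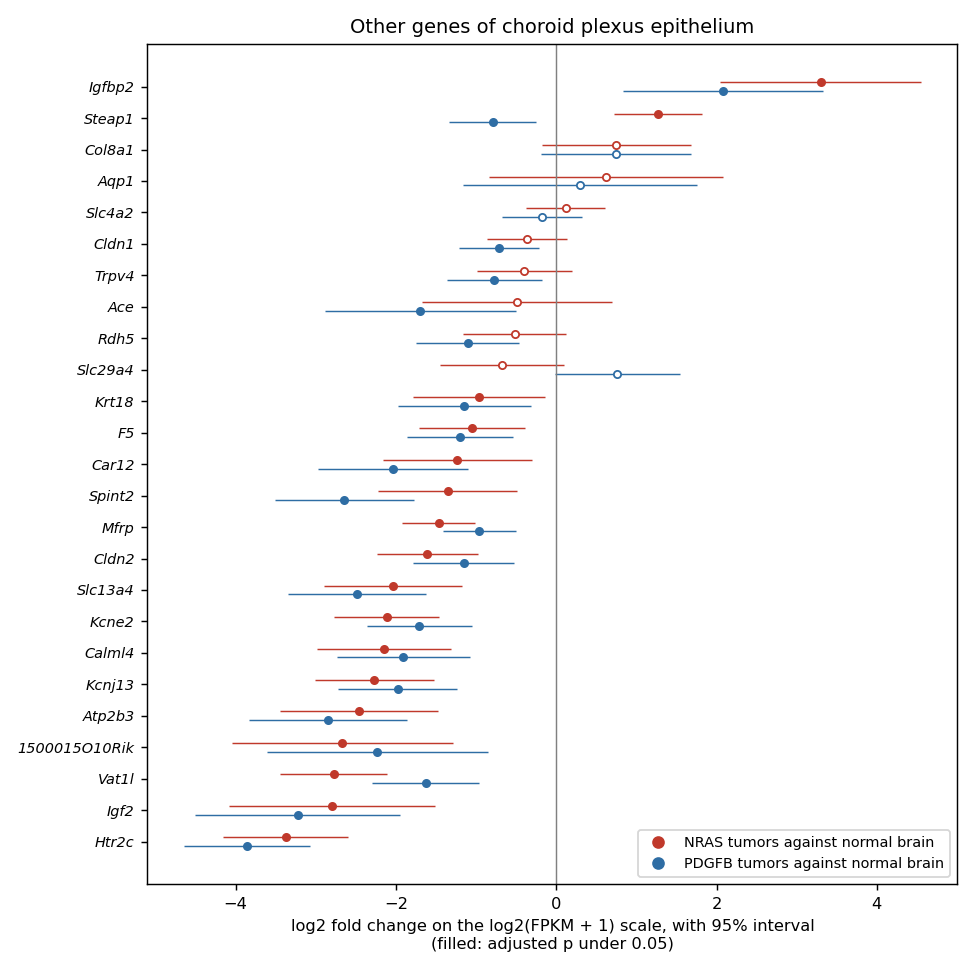
Log2 fold change of the other choroid plexus genes that passed the filter, in NRAS tumors against normal brain and in PDGFB tumors against normal brain. Most lie below 0 in both, while Igfbp2 lies at 3.30 and 2.08.

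Some of those genes varied with the 8 inside the groups. Likeness was Pearson's r between deviations from group means over the 11 libraries, sought among 5134 genes and given as a description. Folr1 was most like 1500015O10Rik (r = 0.97), Kcne2 (0.94) and Wdr86 (0.94), and Clic6 most like 1500015O10Rik (0.96), Wdr86 (0.92) and Calml4 (0.92). Otx2 was most like Calml4 (0.90), 1500015O10Rik (0.87) and Wdr86 (0.85), and Ttr most like Calml4 (0.86), Mnd1 (0.84) and Raet1e (0.84). Kl was most like Kcne2 (0.84), Cldn2 (0.83) and Kcnj13 (0.81), and Sostdc1 most like Cldn2 (0.87), Kcne2 (0.86) and Prr32 (0.80). Prlr was most like Car12 (0.85), a carbonic anhydrase gene, Gadd45b (0.83) and Nts (0.77). Enpp2 was most like Toporsos (0.83), Id4 (0.83) and Stac2 (0.82). Mnd1, Raet1e, Wdr86, Prr32, Gadd45b, Nts, Toporsos, Id4 and Stac2 are not in the choroid plexus list. The points share their libraries: 1500015O10Rik stood at 2.63, 0.831, 0.278 and 10.4 FPKM across PDGFB tumors 1 to 4 and 7.35, 18.2 and 18.9 FPKM across normal brains 1 to 3, again with PDGFB tumor 4 high and normal brain 1 low.

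Genes that work with the 8, or are related to them, were counted in lists. The counts stand beside shares over all genes tested of 32.0% called higher and 30.3% called lower in NRAS tumors, and 29.3% and 29.2% in PDGFB tumors, and are not read as setting a list apart from other genes. Of 9 tested genes of thyroid hormone and retinol handling, around Ttr, 3 fell in NRAS tumors and 6 fell in PDGFB tumors. Rbp4, the retinol carrier that binds transthyretin, averaged 5.44 ± 2.71 FPKM in NRAS tumors, 4.71 ± 1.77 FPKM in PDGFB tumors and 15.6 ± 0.400 FPKM in normal brain and fell (-1.44 and -1.60), as did the thyroid hormone receptor gene Thra (-1.85 and -1.78). Of 13 genes of folate uptake and use, around Folr1, 8 rose, 0 fell and 5 did not pass in NRAS tumors, and 9 rose, 0 fell and 4 did not pass in PDGFB tumors. Mthfd2, a mitochondrial enzyme of one-carbon metabolism, averaged 42.5 ± 12.01 FPKM in NRAS tumors, 49.5 ± 11.9 FPKM in PDGFB tumors and 4.13 ± 0.925 FPKM in normal brain and rose (3.06 and 3.29), with Shmt2 (2.95 and 3.71), Shmt1 (2.81 and 3.53) and the thymidylate synthase gene Tyms (2.62 and 2.81).

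Of 5 tested partners of klotho, 3 rose, 1 fell and 1 did not pass in NRAS tumors, and 2 rose, 2 fell and 1 did not pass in PDGFB tumors. Adam17, a protease that sheds klotho, rose (1.60 and 1.37) and the receptor gene Fgfr3 fell (-1.10 and -1.87), while Fgf23 did not pass the filter. Of 10 tested genes of prolactin receptor signalling, 7 rose, 0 fell and 3 did not pass in NRAS tumors, and 2 rose, 0 fell and 8 did not pass in PDGFB tumors. Socs3, a feedback inhibitor that many cytokines induce, averaged 40.1 ± 24.3 FPKM in NRAS tumors, 9.23 ± 2.65 FPKM in PDGFB tumors and 0.917 ± 0.134 FPKM in normal brain and rose in both (4.25 and 2.39), and Stat3 rose as well (1.94 and 1.93). Of 3 tested relatives of Clic6, 2 rose, 0 fell and 1 did not pass in NRAS tumors, and 3 rose, 0 fell and 0 did not pass in PDGFB tumors. Clic1, found in many cell types, averaged 281 ± 56.1 FPKM in NRAS tumors, 137 ± 29.5 FPKM in PDGFB tumors and 11.4 ± 0.952 FPKM in normal brain and rose (4.49 and 3.45), and Clic5 rose in PDGFB tumors (2.95) but did not pass in NRAS tumors (0.44, adjusted p = 0.305).

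Of 13 tested BMP and WNT partners of Sostdc1, 4 rose, 4 fell and 5 did not pass in NRAS tumors, and 3 rose, 4 fell and 6 did not pass in PDGFB tumors. The WNT coreceptor gene Lrp5 rose (1.56 and 1.14) and the BMP antagonist gene Nog fell (-1.24 and -1.38). Of 12 tested genes of lysophosphatidic acid signalling, around Enpp2, 2 rose, 5 fell and 5 did not pass in NRAS tumors, and 4 rose, 5 fell and 3 did not pass in PDGFB tumors. The receptor gene Lpar6 rose (1.77 and 1.26), and the receptor gene Lpar1 (-1.62 and -2.06) and Enpp5, a relative of Enpp2 (-1.85 and -1.94), fell. Of 3 tested OTX and related homeobox factors, 0 rose, 0 fell and 3 did not pass in NRAS tumors, and 1 rose, 2 fell and 0 did not pass in PDGFB tumors.

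Among markers of other cells of the brain, those of cilia and neurons mostly fell, while those of meninges and endothelium had no common direction. Their part in the results was not tested. Of all genes tested, 32.0% were called higher and 30.3% lower in NRAS tumors, and 29.3% and 29.2% in PDGFB tumors. Of 13 tested genes of motile cilia and ependyma, 0 rose, 10 fell and 3 did not pass in NRAS tumors, and 0 rose, 12 fell and 1 did not pass in PDGFB tumors. Ccdc153, Tmem212, Rsph4a, Ak7, Pifo and Odf3b passed the filter only with normal brain, which favours lower levels in tumors. Among the other 7 genes 0 rose, 4 fell and 3 did not pass in NRAS tumors, and 0 rose, 6 fell and 1 did not pass in PDGFB tumors. Fam183b averaged 1.61 ± 1.07 FPKM in NRAS tumors, 0.898 ± 0.675 FPKM in PDGFB tumors and 10.3 ± 4.53 FPKM in normal brain and fell (-2.11 and -2.57), and the radial spoke gene Rsph1 fell (-1.69 and -1.90). The summed level of all 18 cilium genes was 32.5 to 76.3 FPKM in NRAS tumors, 16.2 to 35.8 FPKM in PDGFB tumors and 61.2 to 86.5 FPKM in normal brain. Of 10 neuron genes, 0 rose, 9 fell and 1 did not pass in NRAS tumors, and 0 rose, 10 fell and 0 did not pass in PDGFB tumors, with summed levels of 273 to 1245 FPKM in NRAS tumors, 115 to 681 FPKM in PDGFB tumors and 2494 to 2969 FPKM in normal brain. Of 13 tested genes of neurons of particular regions, 0 rose, 10 fell and 3 did not pass in NRAS tumors, and 0 rose, 10 fell and 3 did not pass in PDGFB tumors; 1 of them, Drd2, passed only with normal brain, as did 1 gene of the next list, Ogn. Of 13 tested genes of meninges and fibroblasts, 2 rose, 3 fell and 8 did not pass in NRAS tumors, and 2 rose, 4 fell and 7 did not pass in PDGFB tumors, with summed levels of 56.98 to 138 FPKM in NRAS tumors, 39.99 to 134 FPKM in PDGFB tumors and 57.02 to 146 FPKM in normal brain. Of 10 endothelial genes, 4 rose, 2 fell and 4 did not pass in NRAS tumors, and 2 rose, 4 fell and 4 did not pass in PDGFB tumors, with summed levels of 145 to 189.9 FPKM in NRAS tumors, 91.96 to 149 FPKM in PDGFB tumors and 118 to 139.8 FPKM in normal brain.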

How the data were processed

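RNA was sequenced from 11 mouse libraries. The authors deposited 1 table of gene levels, read here as FPKM because the submitters' processing notes name Cufflinks 2.2.1 (with TopHat2 2.0.13 and the mm10 build); no file header states the unit, and no source used here gives their settings. Of 24347 rows, 27 whose gene names had become dates were left out. Low-value steps gave relative depths of 0.771 to 1, with 75.9 to 79.8% of ratios within 0.02 (log2) of small whole-number ratios. Absolute depth is unknown, so no counting intervals are given.

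Group means were fitted to all libraries together with limma 3.58.1 (R 4.3.3, eBayes with trend) on log2(FPKM + 1), for genes with at least 1 FPKM in at least 3 libraries, with two-sided p-values adjusted by Benjamini-Hochberg across the 14491 genes and read at 0.05. The fit was tested on simulated data. Alternatives were other pseudocounts, filters and scalings, a replicate block, the title number series, other fits and leaving out each library; 4 were added after seeing the data. The 8 genes and all gene lists were chosen with earlier results of these data known. Named are the 8 genes, Nras and Pdgfb, up to 4 called genes per list and comparison with the largest change (2 with the smallest p where none was called) and the 3 genes most like each of the 8; not all are printed. Otx2os1, Aqp1 and Slc13a4 were chosen after their values were seen. One gene of the thyroid hormone and retinol list is not reported here. Positions and promoters are RefSeq GRCm38.p6. Of the 8 genes, promoters of Otx2, Kl and Prlr alone were used. The motif count over their 8 windows thus leaves out Ttr and the other genes.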

Additional observations from a re-analysis of the deposited data

Results flagged for a closer look

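In 16 groups of 4 tumors (8 genes in each model), the gap of the outermost library to the nearest other was taken as a share of the range. In 3 groups this share was above Dixon's 95% critical value. That value assumes normally distributed levels, while these are raw FPKM, some near 0, and the groups share libraries. The number of flags that chance would give is thus not known. Ttr was 36.5 FPKM in NRAS tumor 1, with a gap of 0.968 of the range. Otx2 was 0.375 FPKM in the same tumor, with a gap of 0.918. Prlr was 0.0391 FPKM in PDGFB tumor 3, below the other PDGFB tumors, with a gap of 0.873.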

How the results depend on the processing

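In NRAS tumors against normal brain, Ttr, Kl and Enpp2 kept their direction and call in every alternative run. The other 5 genes did so too where tested (Prlr was not tested when a normal brain was left out), but they passed the filter through normal brain, which fixes their direction. Kl reached 1 FPKM in 1 NRAS tumor and 2 PDGFB tumors, at 1.003 to 1.05 FPKM. With any 1 of these left out, Kl too passed the filter only with normal brain. In PDGFB tumors against normal brain, Ttr also passed with quantile normalization (-4.90, adjusted p = 0.0437) and with a replicate block (-4.91, adjusted p = 0.0442). Replicate numbers did not pair the libraries, as deviations of same-numbered libraries correlated at -0.50 to 0.16. Between the models, the number of the 8 genes called was 1 with a pseudocount of 0.1 (Clic6, -1.81) and 2 with quantile normalization (Clic6, -1.10, and Sostdc1, -0.79), against 0; quantile normalization moved the median of all genes there to -0.11. Leaving out 1 library gave 7 to 8 of the 8 genes called in NRAS tumors, 5 to 8 in PDGFB tumors and 0 to 3 between the models; 1 was called without NRAS tumor 1 and 3 without PDGFB tumor 3. For all genes the ranges were 7411 to 9375, 6922 to 8844 and 2580 to 4186, and for other choroid plexus genes 14 to 18, 16 to 23 and 3 to 5. With title numbers as a covariate, PDGFB tumors had 4768 genes called (8470 without it) and 13 other choroid plexus genes (21 without it), and among the genes of the lists, the ones checked for this, 3 reversed: Pecam1 (-0.71), Socs1 (-1.85) and Ptpn6 (-1.16). A pseudocount of 0.1 enlarged the falls of low genes in NRAS tumors, to -4.59 for Clic6, -5.00 for Folr1 and -4.62 for Otx2. The cause was not tested. Levels under 1 FPKM rest on few reads.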
